A study of Mus musculus with 6 samples.

Results

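The Krüppel-like factors (KLF) were measured in mouse bone marrow cells positive for c-Kit, the stem cell factor receptor, which is carried by blood stem and progenitor cells. The 10 genes Klf1, Klf2, Klf3, Klf4, Klf6, Klf7, Klf9, Klf10, Klf12 and Klf13 were taken by symbol from the 20097 genes listed in the files, and all 10 had enough reads to be tested. Poly-A RNA was sequenced in 3 libraries of genotype WT and 3 of genotype Runx1 KO, a knockout of the blood transcription factor gene Runx1. The labels give neither age nor sex, nor how and when Runx1 was disrupted, nor whether the 3 libraries of a group came from separate animals, so that p-values measure only the spread between these libraries.

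KLF proteins bind GC-rich and CACCC-type sequences through zinc fingers at their carboxyl end, a domain they share with the SP factors. Outside that domain they differ, and so do their effects. KLF1, KLF2, KLF4, KLF6 and KLF7 are known mainly as activators that use acetyltransferases, KLF3 and KLF12 as repressors that recruit CtBP, and KLF9, KLF10 and KLF13 as factors that bind the corepressor Sin3. In blood, KLF1 drives red cell genes, KLF2 is known for holding lymphocytes quiescent and KLF4 for monocyte differentiation, and several members are also induced within minutes by serum, stress or mechanical stimuli.

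Each library held between 23297526 and 26793380 reads over the listed genes, and values are given as normalised read counts, the reads of a gene scaled by 1 factor for each library. Runx1 itself had 3031, 2799 and 3497 normalised reads under the label WT and 6648, 6720 and 5830 under the label Runx1 KO, a log2 change of 1.04 (SE 0.10, limma adjusted p 0.00163). The targeted transcript was thus not lower under its label, and reads summed over a whole gene do not tell if part of it was deleted. Groups are therefore called by their labels, and every direction runs from libraries labelled WT to libraries labelled Runx1 KO. The sorting marker Kit and the progenitor marker Cd34 were present in every library. Of 8 stem and progenitor markers 6 passed the test upwards and 0 downwards, against 10.6% and 11.3% of all genes tested. Libraries were sequenced as a pool and the labels give no batch.

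Among the KLF genes, Klf4 was the one whose change passed the test, with a mean 5.46-fold lower in the libraries labelled Runx1 KO. Klf2, Klf6, Klf7, Klf10 and Klf13 had estimates below 0, Klf1 and Klf9 had estimates above 0, and Klf3 and Klf12 had estimates close to 0, but none of these 9 passed. The test was limma on log2(normalised read count + 1), with p-values adjusted over 15410 genes and a threshold of 0.05. Thus 1 of 10 members was called, against 21.9% of all genes tested, 0 upwards against 10.6% and 1 downwards against 11.3%. The median log2 change of the 10 members was -0.45, against -0.0042 over all genes tested. At an unadjusted p under 0.05 there were 7 members, where 37.7% of all genes reached that level. DESeq2 on the read counts called 5 members, Klf1 upwards and Klf4, Klf6, Klf10 and Klf13 downwards, against 25.4% of all genes, and edgeR called 1 (Klf4), against 21.2%. In 3 members, Klf1, Klf4 and Klf9, the groups did not overlap, against 43.3% of all genes. RNA was taken from a bulk fraction, so that fewer cells of a type and less RNA per cell cannot be told apart.

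**Figure D1:**
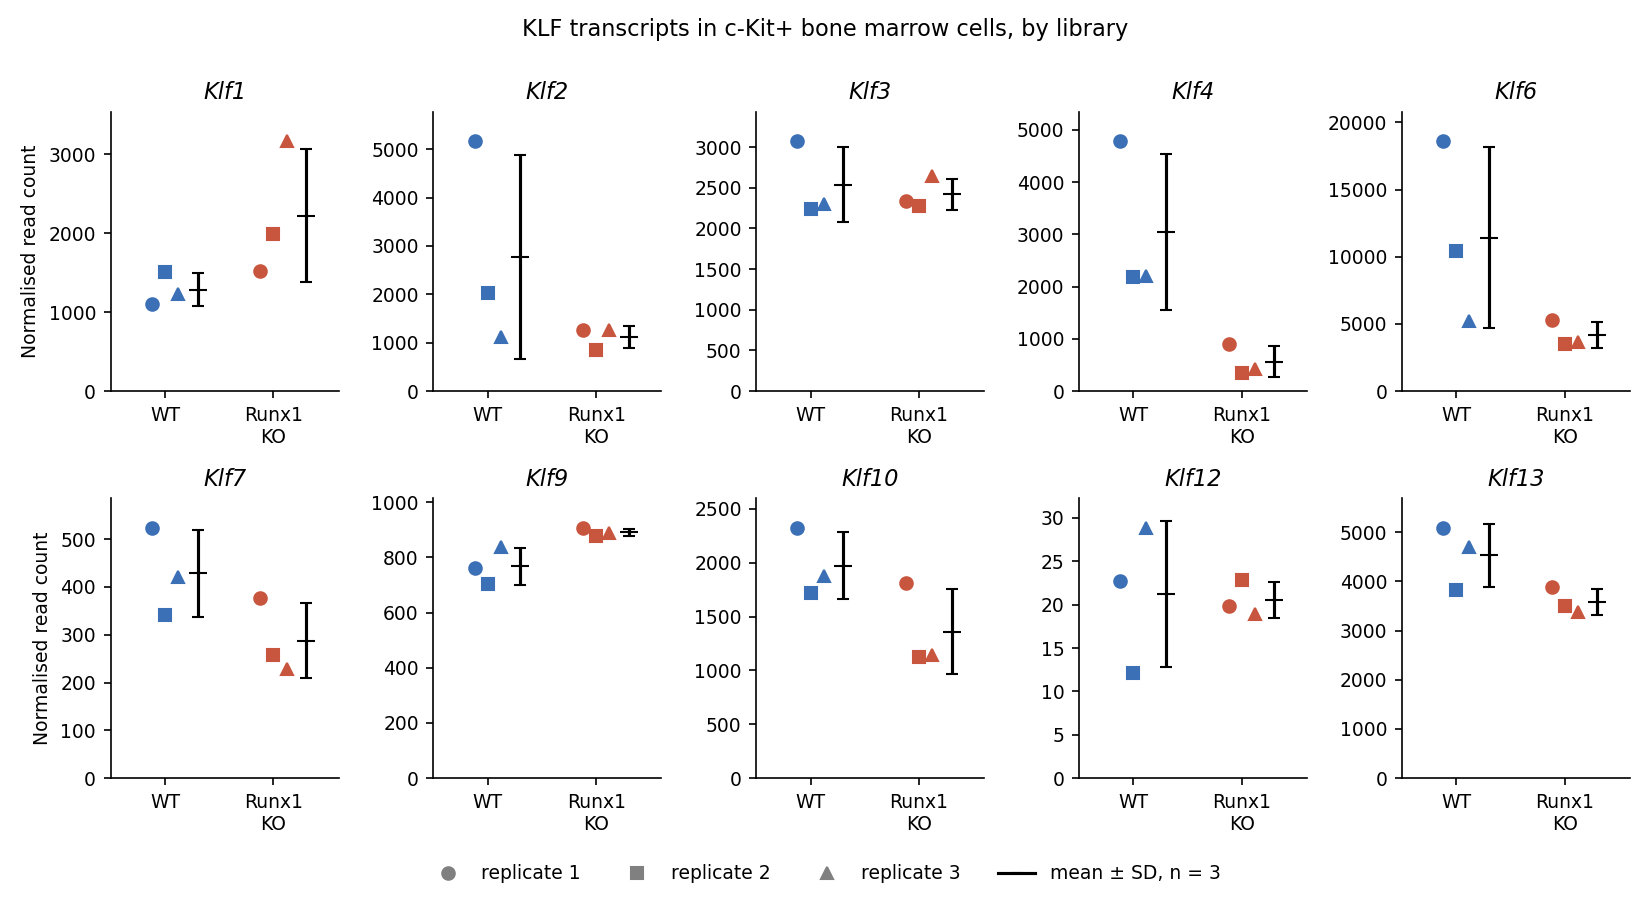
Normalised read count of the 10 KLF genes (y axis, linear and starting at 0, each panel with its own scale) in the libraries labelled WT (blue) and Runx1 KO (red), with the mean ± SD over 3 libraries in black. Klf4 is lower in every library labelled Runx1 KO, and WT replicate 1 is the highest of the 6 libraries in 7 of the 10 genes.

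The stretch upstream of the transcription start is shown for the 4 members with the largest estimated change, so that the motif content of the 1 that passed can be read beside that of the other 3. Sequences are from RefSeq on GRCm38.p6, which held an entry for 9 of the 10 members, and each is written 5′ to 3′ on the strand of its gene, beginning 250 bases before the start and ending before the first annotated exon base. Capitals mark matches, on either strand, to TGNGGT (the RUNX motif), GATAA (the GATA motif), CCNCNCCC (the KLF and SP motif) or TGACG (the core of the cyclic AMP response element). Klf4 lies at chr4:55532476-55532725 on the minus strand, Klf6 at chr13:5861239-5861481, Klf2 at chr8:72318812-72319032 and Klf1 at chr8:84901732-84901927, these 3 on the plus strand.
Klf4: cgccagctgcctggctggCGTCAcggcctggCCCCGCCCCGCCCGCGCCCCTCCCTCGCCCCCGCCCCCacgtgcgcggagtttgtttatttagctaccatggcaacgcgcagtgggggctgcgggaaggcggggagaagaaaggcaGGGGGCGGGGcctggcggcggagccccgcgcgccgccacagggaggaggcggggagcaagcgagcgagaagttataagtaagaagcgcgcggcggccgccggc
Klf6: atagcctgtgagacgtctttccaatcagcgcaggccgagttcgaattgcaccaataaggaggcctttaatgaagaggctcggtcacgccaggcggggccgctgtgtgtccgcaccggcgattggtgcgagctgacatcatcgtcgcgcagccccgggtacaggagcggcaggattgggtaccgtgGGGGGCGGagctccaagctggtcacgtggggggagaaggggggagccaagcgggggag
Klf2: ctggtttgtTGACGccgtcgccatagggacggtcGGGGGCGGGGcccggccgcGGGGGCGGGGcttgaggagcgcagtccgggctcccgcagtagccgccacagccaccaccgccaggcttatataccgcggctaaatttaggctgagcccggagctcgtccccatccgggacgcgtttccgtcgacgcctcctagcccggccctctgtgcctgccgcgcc
Klf1: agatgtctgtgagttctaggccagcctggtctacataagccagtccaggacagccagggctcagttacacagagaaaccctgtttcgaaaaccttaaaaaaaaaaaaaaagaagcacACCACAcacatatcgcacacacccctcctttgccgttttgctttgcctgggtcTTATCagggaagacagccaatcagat
The Klf4 stretch held 9 matches to CCNCNCCC, 7 on the printed strand and 2 on the other, many of them overlapping each other, and 1 match to TGACG. The Klf2 stretch held 4 matches to CCNCNCCC, again overlapping, and 1 to TGACG, and the Klf6 stretch held 1 match to CCNCNCCC. The Klf1 stretch held 0 matches to CCNCNCCC, though it includes a CACCC sequence, which is not a match to that motif here. It held 1 match to the RUNX motif 133 bases before the start and 1 to the GATA motif 80 bases before it. The other 3 stretches held 0 of either. In the same stretch of all 32851 promoter windows of the table, the share with CCNCNCCC was 45.9% at the length of the Klf4 stretch, 44.8% at that of Klf6 and 41.2% at that of Klf2. The share with the RUNX motif was 33.7% and the share with the GATA motif 19.1% at the length of the Klf1 stretch. These matches describe letters in a window, and binding was not measured.

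Klf4 (ENSMUSG00000003032, chromosome 4, 55527143 to 55532466, minus strand) encodes a factor known for monocyte differentiation and for the reprogramming of somatic cells. It had 4778, 2180 and 2199 normalised reads in WT replicates 1 to 3 and 900, 353 and 426 in Runx1 KO replicates 1 to 3. The lowest library labelled WT was above the highest labelled Runx1 KO, by 1280 normalised reads. In each group replicate 1 stood above the other libraries, 2.19-fold above the lowest under the label WT and 2.55-fold under the label Runx1 KO. The means were 3052 ± 1495 and 559 ± 297 (SD, n = 3). Klf4 fell by 2.47 on the log2 scale (SE 0.42, 95% interval -3.46 to -1.47, limma adjusted p 0.00914). Of all tested genes 2.12% had a larger fall. Klf4 also passed each time 1 of the 6 libraries was left out, with log2 changes from -2.87 to -2.09 and adjusted p values up to 0.0392. Those fits called 16.2%, 13.9% and 15.1% of all genes without WT replicates 1, 2 and 3, and 23.0%, 8.75% and 11.3% without Runx1 KO replicates 1, 2 and 3.

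Of 7 monocyte and macrophage markers 4 passed the test downwards, where 11.3% of all genes tested did. Their summed level ran from 62493 to 83067 normalised reads in libraries labelled WT and from 33982 to 54768 in those labelled Runx1 KO. Of 8 neutrophil markers 7 passed downwards, with sums from 270371 to 332176 and from 131965 to 181338. Within that list the genes of later granules and maturation, Ltf, Camp, Ngp, Lcn2 and S100a8, had log2 changes from -2.64 to -1.47, while the primary granule genes Elane and Prtn3, used by promyelocytes, had -0.35 and -0.41, and Mpo at -0.14 did not pass. The monocyte markers that did not pass were Csf1r, Ccr2 and Ms4a6c. Neither pair of ranges overlapped. Runx1 KO replicate 1, which had the most Klf4 reads of its group, was the highest of its group in 7 of the 7 monocyte markers and 6 of the 8 neutrophil markers. The same held for 41.3% of all tested genes, and it was not particular to myeloid markers. Replicate 1 was also highest of its group in 6 of 6 B-lymphoid, 6 of 6 T-lymphoid and 6 of 7 megakaryocyte markers. It was so in 1 of 10 erythroid and 2 of 8 stem and progenitor markers. No monocyte or neutrophil marker was at 0 in any library, and the part of these cells in the fall of Klf4 was not tested.

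Klf6 (ENSMUSG00000000078, chromosome 13, 5861482 to 5870394, plus strand) encodes a widely expressed activator that is induced quickly by injury and inflammatory signals. It had 18581, 10461 and 5215 normalised reads in libraries labelled WT and 5291, 3535 and 3690 in those labelled Runx1 KO. The groups touched at their edges, where WT replicate 3 was just below Runx1 KO replicate 1. The means were 11419 ± 6734 and 4172 ± 972 (SD, n = 3), and the log2 change of -1.29 (SE 0.42, 95% interval -2.29 to -0.29) did not pass (limma adjusted p 0.0687). Within the label WT the highest library was 3.56-fold above the lowest, and 97.2% of tested genes had a smaller spread there. The estimate was -0.85 without WT replicate 1 (adjusted p 0.114) and -1.76 without WT replicate 3 (adjusted p 0.017), so that the call depended on which WT library was included.

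Klf2 (ENSMUSG00000055148, chromosome 8, 72319033 to 72321656, plus strand), the gene of the quiescence factor of lymphocytes and endothelium, was the member with the widest spread under the label WT. It had 5158, 2035 and 1128 normalised reads in libraries labelled WT and 1256, 860 and 1260 in those labelled Runx1 KO. WT replicate 3 lay inside the range of the other group, whereas WT replicate 1 was 4.57-fold above WT replicate 3. The log2 change of -1.04 (SE 0.50, 95% interval -2.22 to 0.14) did not pass (limma adjusted p 0.177), and without WT replicate 1 it was -0.45 (adjusted p 0.306). Of 6 B-lymphoid markers 5 passed downwards, where 11.3% of all genes tested did. WT replicate 1 was the highest library in 6 of the 6 markers, against 22.2% of all genes tested. Their sums were 22616, 5514 and 9230 normalised reads under the label WT and 2384, 1007 and 934 under the label Runx1 KO. WT replicates 2 and 3 thus stood in the opposite order to that of Klf2. No marker of that list was at 0 in any library. Of 6 T-lymphoid markers 0 passed by limma or edgeR, 1 passed by DESeq2 and 2 had an unadjusted p under 0.05. Of all genes tested 21.9%, 21.2% and 25.4% passed by limma, edgeR and DESeq2, and 37.7% had an unadjusted p under 0.05. The T-lymphoid sums ran from 929 to 1128 under the label WT and from 297 to 971 under the label Runx1 KO. The part of lymphoid cells in the level of Klf2 was not tested.

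Klf10 (ENSMUSG00000037465, chromosome 15, 38291463 to 38300706, minus strand) was first known as an early gene induced by TGF-beta. It had 2318, 1720 and 1881 normalised reads in libraries labelled WT and 1813, 1129 and 1142 in those labelled Runx1 KO. Runx1 KO replicate 1 lay within the range of the WT libraries and the other two lay below it. The log2 change was -0.56 (SE 0.20, limma adjusted p 0.0874), and without Runx1 KO replicate 1 it was -0.79 and passed (adjusted p 0.0096).

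Klf7 (ENSMUSG00000025959, chromosome 1, 64029447 to 64122282, minus strand), best known from the developing nervous system, showed the same arrangement of libraries at a lower level. It had 522, 342 and 421 normalised reads under the label WT and 378, 257 and 229 under the label Runx1 KO. The log2 change was -0.59 (SE 0.23, limma adjusted p 0.106), and without Runx1 KO replicate 1 it was -0.80 and passed (adjusted p 0.0303). Klf7 shares 3196 exon bases with Gm26649 on the opposite strand, a gene not analysed here, and whether counting used the strand is not given in the sources used here.

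Klf13 (ENSMUSG00000052040, chromosome 7, 63886351 to 63938915, minus strand), a factor known for activating a chemokine gene late in T cell activation, had 5077, 3831 and 4693 normalised reads under the label WT and 3877, 3506 and 3374 under the label Runx1 KO. The groups overlapped only where Runx1 KO replicate 1 was just above WT replicate 2. The log2 change of -0.33 (SE 0.11, 95% interval -0.59 to -0.07) did not pass (limma adjusted p 0.0745). It passed without WT replicate 2, at -0.45 (adjusted p 0.0252).

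Klf1 (ENSMUSG00000054191, chromosome 8, 84901928 to 84905291, plus strand), the master activator of red cell genes, had the largest estimate above 0. It had 1107, 1512 and 1226 normalised reads in libraries labelled WT and 1516, 1990 and 3160 in those labelled Runx1 KO. The groups did not overlap, but the gap between them was 4.18 normalised reads. The means were 1281 ± 208 and 2222 ± 846 (SD, n = 3), and the log2 change of 0.74 (SE 0.26, 95% interval 0.13 to 1.35) did not pass (limma adjusted p 0.0816). It passed without Runx1 KO replicate 1, at 0.98 (adjusted p 0.0237), and was 0.45 without Runx1 KO replicate 3 (adjusted p 0.147).

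Summed erythroid markers had the library order of Klf1 under the label Runx1 KO but not under the label WT. Of 10 erythroid markers 0 passed upwards and 1 downwards by limma, where 10.6% and 11.3% of all genes tested did. In either direction 0 passed by edgeR (21.2% of all genes) and 3 by DESeq2 (25.4%), and 3 had an unadjusted p under 0.05 (37.7%). The sums were 27343, 34563 and 21712 normalised reads under the label WT, where Klf1 was lowest in replicate 1. Under the label Runx1 KO they were 24075, 32085 and 43374. Runx1 KO replicate 3, which had the most Klf1 reads, was the highest of its group in 9 of the 10. Runx1 KO replicate 1, which had the fewest of its group, was the lowest in 7. The shares of all genes with these library positions were not computed. No erythroid marker was at 0 in any library, and the part of red cell precursors in the level of Klf1 was not tested.

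Klf9 (ENSMUSG00000033863, chromosome 19, 23141226 to 23168134, plus strand), a gene induced by glucocorticoid and thyroid hormone, was the most even of the members. It had 760, 703 and 838 normalised reads in libraries labelled WT and 905, 877 and 889 in those labelled Runx1 KO. All 3 libraries labelled Runx1 KO lay above the others and within 1.03-fold of each other. The log2 change was 0.22 (SE 0.08, 95% interval 0.02 to 0.42, limma adjusted p 0.104), and it did not pass with any of the 6 libraries left out (adjusted p values from 0.067 to 0.241).

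Klf3 (ENSMUSG00000029178, chromosome 5, 64803388 to 64832901, plus strand), a CtBP-dependent repressor whose gene is itself activated by KLF1 in red cells, had 3070, 2245 and 2297 normalised reads under the label WT and 2340, 2281 and 2640 under the label Runx1 KO. The range of the libraries labelled Runx1 KO lay inside that of the others. Its log2 change was -0.06 (SE 0.13, limma adjusted p 0.784), and its 95% interval of -0.36 to 0.25 bounds the ratio between 0.779 and 1.19. Klf3 shares 404 exon bases with Gm20033 on the opposite strand, which had at most 7.32 normalised reads in any library.

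Klf12 (ENSMUSG00000072294, chromosome 14, 99870632 to 100284679, minus strand), the other CtBP-dependent repressor, was barely expressed. It had 22.8, 12.1 and 28.8 normalised reads under the label WT and 19.9, 22.8 and 18.9 under the label Runx1 KO, from between 12 and 30 reads in a library. Its log2 change of 0.03 (SE 0.35, limma adjusted p 0.958) had a 95% interval from -0.79 to 0.85, so that changes within these bounds are not excluded in either direction.

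**Figure D2:**
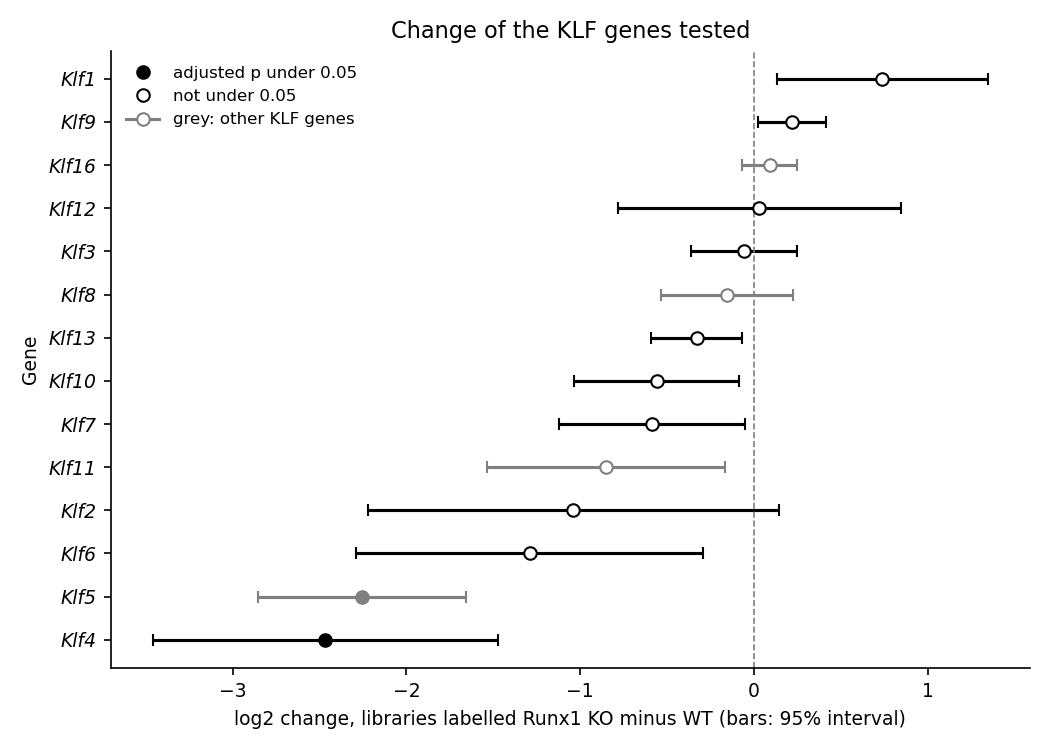
Log2 change from libraries labelled WT to libraries labelled Runx1 KO (x axis, limma, with 95% intervals) for the 10 members in black and for the 4 other KLF genes tested in grey. Filled points mark an adjusted p under 0.05, which Klf4 at -2.47 and Klf5 at -2.26 reached.

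Per kilobase of exon, the members spanned a wide range of levels. In the libraries labelled WT the order of the means was Klf6 (2601 ± 1534 normalised reads per kb), Klf2 (1502 ± 1145), Klf4 (1001 ± 490), Klf1 (838 ± 136), Klf13 (602 ± 84.7), Klf10 (472 ± 74.0), Klf3 (226 ± 41.1), Klf9 (159 ± 14.1), Klf7 (52.7 ± 11.1) and Klf12 (3.04 ± 1.21). The ranges of Klf6 and Klf2, of Klf2 and Klf4, of Klf4 and Klf1, and of Klf13 and Klf10 overlapped across these libraries. Within each library labelled WT, Klf6 still stood above Klf2 and Klf13 above Klf10. The order of Klf2 and Klf4, and that of Klf4 and Klf1, changed from library to library. In the libraries labelled Runx1 KO the highest mean was that of Klf1 (1452 ± 553 per kb), followed by Klf6 (950 ± 221), whose range overlapped with it. Klf4 stood between Klf2 and Klf1 under the label WT and between Klf9 and Klf7 under the label Runx1 KO, at 183 ± 97.4 per kb, with a range that overlapped that of Klf9. Exon lengths are those of GENCODE M21 and count every annotated exon, so that a gene whose cells use short transcripts is given too low a level.

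**Figure D3:**
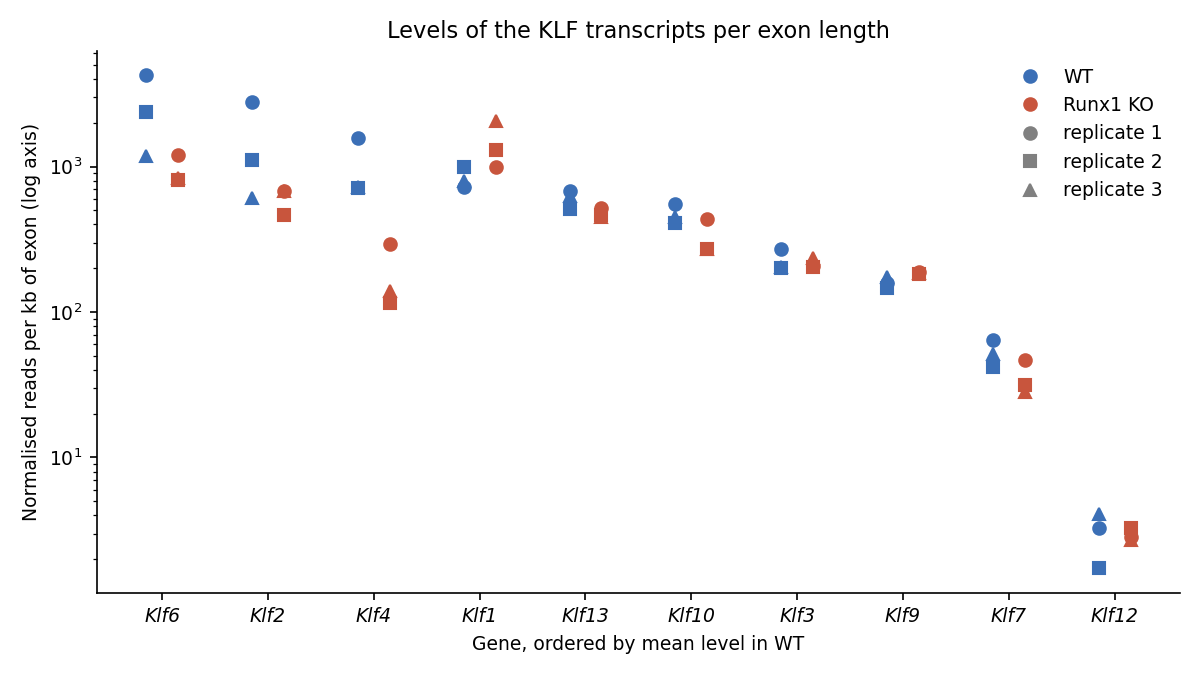
Normalised reads per kilobase of exon (log axis) for the 10 KLF genes, ordered by their mean in the libraries labelled WT, with each library as a point. Klf6 leads under the label WT at a mean of 2601 per kb and Klf1 under the label Runx1 KO at 1452, and Klf12 is lowest in both.

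The members differed among libraries of the same label as well as between labels. The SD of log2 values under the label WT was above the median of all tested genes (0.144) in 9 of the 10 members, reaching 1.11 for Klf2, 0.92 for Klf6 and 0.65 for Klf4, and Klf9 at 0.13 was the exception. Under the label Runx1 KO it was above the median (0.131) in 7, with 0.71 for Klf4 and 0.54 for Klf1 as the largest. WT replicate 1 was the highest of the 6 libraries in 7 members, namely Klf2, Klf3, Klf4, Klf6, Klf7, Klf10 and Klf13, whereas 22.2% of all tested genes were highest there. Runx1 KO replicate 1 was the highest of its group in 6 members, against 41.3% of all tested genes.

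Immediate early genes, which are switched on within minutes by serum, stress or cell handling, stood high in the same WT library. Of 12 such genes 10 were highest of the 6 in WT replicate 1, and their summed level was 144424, 73787 and 52981 normalised reads in libraries labelled WT and 76201, 60725 and 64782 in those labelled Runx1 KO. Fos had 32305, 16529 and 5123 normalised reads under the label WT, an order of libraries that Klf2 and Klf6 shared, and 12537, 12156 and 16550 under the label Runx1 KO. Fosb, Jun, Ier2, Dusp1 and Zfp36 had that WT order too. Junb, Egr1, Egr2, Atf3, Nr4a1 and Btg2 did not, with WT replicate 3 above WT replicate 2. Of the 12 genes 0 passed the test by limma, against 21.9% of all genes tested. The lowest limma adjusted p was 0.0698 for Atf3 (log2 change -1.47, SE 0.48). At an unadjusted p under 0.05 there were 2 of the 12, against 37.7% of all genes. By edgeR or DESeq2 0 passed, against 21.2% and 25.4% of all genes, and the median log2 change was -0.25. The summed levels overlapped between the labels with and without WT replicate 1, and the log2 changes of Klf2, Klf6 and Klf4 without that library were -0.45, -0.85 and -2.09. The part of the immediate early response in the KLF levels was not tested.

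**Figure D4:**
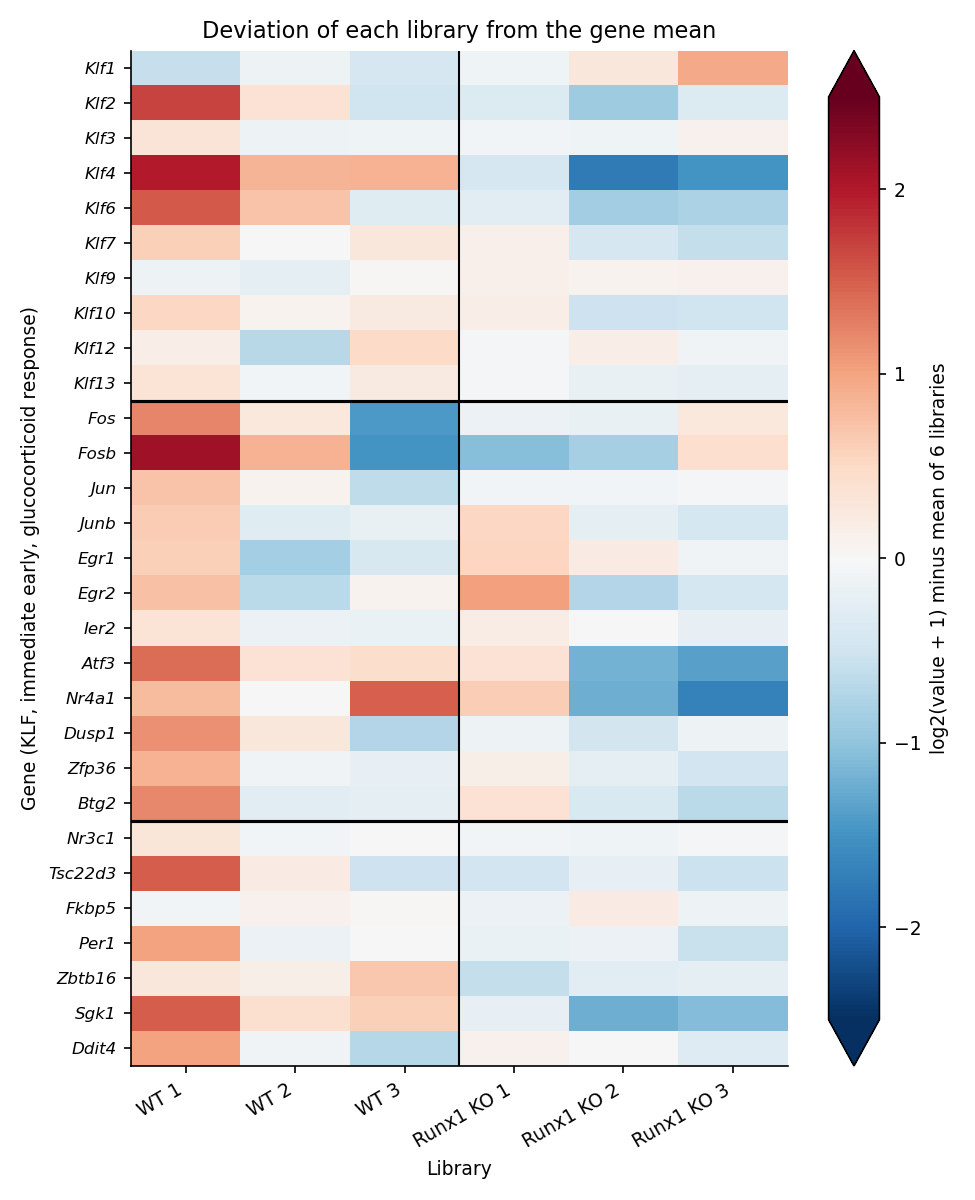
Deviation of each library from the mean of the 6 on the log2(value + 1) scale (colour) for the 10 KLF genes, 12 immediate early genes and 7 glucocorticoid response genes. WT replicate 1 has the highest value (red) of the 6 libraries in 7 KLF genes and 10 immediate early genes, and the Klf4 row separates the labels.

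Of the other KLF genes, Klf5, a factor of proliferating epithelium that also acts in granulocyte development, fell beside Klf4. It had 548, 497 and 317 normalised reads in libraries labelled WT and 119, 81.3 and 79.6 in those labelled Runx1 KO, a log2 change of -2.26 (SE 0.25, limma adjusted p 0.00279). Klf11, a TGF-beta-inducible relative of Klf10, had 1574, 1404 and 1409 against 1342, 692 and 569 (log2 change -0.85, SE 0.29, limma adjusted p 0.0762) and, like Klf10, was highest of its group in Runx1 KO replicate 1. Klf8 and Klf16 had log2 changes of -0.15 (SE 0.16) and 0.09 (SE 0.07) and did not pass. Klf15 had at most 9.59 normalised reads and was not tested, and Klf14 and Klf17 were not analysed here. Of the 4 SP genes tested, Sp1, Sp2, Sp3 and Sp4, 0 passed by limma, against 21.9% of all genes. Their log2 changes ran from -0.14 to 0.17. Likewise 0 had an unadjusted p under 0.05 (37.7% of all genes) or passed by edgeR (21.2%) or DESeq2 (25.4%).

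Among transcripts of the proteins through which KLF factors act, 0 passed by limma, where 21.9% of all genes tested did. An unadjusted p under 0.05 was reached by 37.7% of all genes, while edgeR called 21.2% and DESeq2 25.4%. Of 7 corepressor genes (Ctbp1, Ctbp2, Sin3a, Sin3b, Sap30, Hdac1 and Hdac2) 0 passed by limma, with log2 changes from -0.16 to 0.06 and a median of -0.05, and again 0 had an unadjusted p under 0.05 or passed by edgeR or DESeq2. Ctbp1, the partner of KLF3 and KLF12, had means of 6987 ± 53.1 and 6810 ± 158 normalised reads (SD, n = 3). Of the 4 acetyltransferase genes Ep300, Crebbp, Kat2a and Kat2b 0 passed by limma or edgeR. The nearest was Kat2a at 0.24 (SE 0.08, limma adjusted p 0.0583), the 1 with an unadjusted p under 0.05 and the 1 that DESeq2 called. The ubiquitin ligase genes Wwp1 and Fbxw7, whose products mark KLF proteins for degradation, did not pass by any of these tests, at -0.14 (SE 0.07) and 0.23 (SE 0.12).

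Of 21 tested genes known as targets of KLF1 in red cells, 1 passed upwards and 5 downwards by limma, with a median log2 change of 0.07. Of all genes tested 10.6% passed upwards and 11.3% downwards. Alas2, the first enzyme of heme synthesis in red cells, had 597, 1501 and 679 normalised reads under the label WT and 186, 74.3 and 81.6 under the label Runx1 KO (log2 change -3.01, SE 0.45). The adult globin genes Hbb-bs and Hbb-bt fell as well, with log2 changes of -2.53 (SE 0.34) and -2.68 (SE 0.40), which are uncertain because these near-identical copies can share reads. The anion exchanger gene Slc4a1 fell by 2.31 (SE 0.58), and the cell cycle factor gene E2f2 fell by 1.41 (SE 0.17). Aqp1, the water channel, was the 1 that rose, from 6059, 7648 and 5223 to 9971, 11784 and 15984 normalised reads (log2 change 0.99, SE 0.20). Its libraries had the same order as those of Klf1 under the label Runx1 KO. The other 15, among them Ermap at 0.65 (SE 0.31) and Ank1 at 0.60 (SE 0.35), did not pass. In Runx1 KO replicate 1, 13 of the 21 were lowest of their group, and the share of all genes lowest there was not computed.

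The lists of genes attributed to KLF2, KLF3 and KLF4 each had 1 gene past the test by limma, in every case downwards. Of all genes tested 21.9% were called in either direction and 11.3% downwards. Among 4 tested KLF2 targets DESeq2 called 3 (25.4% of all genes), edgeR called 1 (21.2%) and 3 had an unadjusted p under 0.05 (37.7%). The integrin gene Itgb7 fell by 0.70 (SE 0.18, limma adjusted p 0.0359), while the migration receptor gene S1pr1 had 1426, 364 and 467 normalised reads under the label WT and 512, 339 and 390 under the label Runx1 KO and did not pass (adjusted p 0.388). S1pr1 was highest in WT replicate 1, as Klf2 was. Among 3 genes repressed by KLF3, of which edgeR and DESeq2 also called 1, the galectin gene Lgals3 fell by 1.77 (SE 0.32, limma adjusted p 0.0115), and Klf8 and C1qtnf12 did not pass. Among 4 KLF4 targets, of which edgeR and DESeq2 also called 1, the mitotic cyclin gene Ccnb1, which KLF4 is known to repress, fell by 0.34 (SE 0.07, limma adjusted p 0.0169). The cell cycle inhibitor gene Cdkn1a, the monocyte receptor gene Cd14 and Ccnd1 did not pass, at -0.67 (SE 0.36), -0.23 (SE 0.46) and 0.63 (SE 0.31).

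Transcripts of signalling genes upstream of the members were read from 3 lists, and the activity of these pathways was not measured. Of all genes tested 10.6% passed upwards and 11.3% downwards by limma. The MEK5, ERK5 and MEF2 genes, which induce Klf2 and Klf4 in other cells, had 0 of 7 past the test by limma. By edgeR 0 passed (21.2% of all genes), by DESeq2 0 (25.4%), and 0 had an unadjusted p under 0.05 (37.7%). Their log2 changes ran from -0.36 to 0.20. Of 8 TGF-beta pathway genes, which bear on Klf10 and Klf11, 1 passed upwards and 2 downwards. Tgfb1, the ligand, rose by 0.34 (SE 0.06), Smad2, a signal transducer, fell by 0.27 (SE 0.06), and Skil, an inhibitor that the pathway itself induces, fell by 0.93 (SE 0.24). Of 7 glucocorticoid response genes, which bear on Klf9, 0 passed upwards and 2 downwards, with a median log2 change of -0.57. WT replicate 1 was the highest of the 6 libraries in 5 of them, against 22.2% of all genes tested. The 2 that passed were Sgk1 with -1.67 (SE 0.36) and Zbtb16 with -0.73 (SE 0.18). Fkbp5, a standard readout of the receptor, did not pass at -0.05 (SE 0.10), and the receptor gene Nr3c1 did not pass at -0.15 (SE 0.10). Tsc22d3 had 5546, 2264 and 1372 normalised reads under the label WT, again the library order of Klf2 and Klf6, and 1405, 1696 and 1347 under the label Runx1 KO. Ddit4 shared that WT order, whereas Nr3c1, Fkbp5, Per1, Zbtb16 and Sgk1 did not.

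The remaining cell type markers were counted in the same way, beside shares over all genes tested of 10.6% passing upwards and 11.3% downwards. Of 7 megakaryocyte markers 4 passed upwards and 0 downwards, of 6 tested mast cell and basophil markers 5 passed downwards, of 4 eosinophil markers 1 passed upwards and 1 downwards, and of 4 tested endothelial and stromal markers 1 passed upwards and 2 downwards. The marker Tpsb2 of the mast cell list was at 0 in 1 library.

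**Figure D5:**
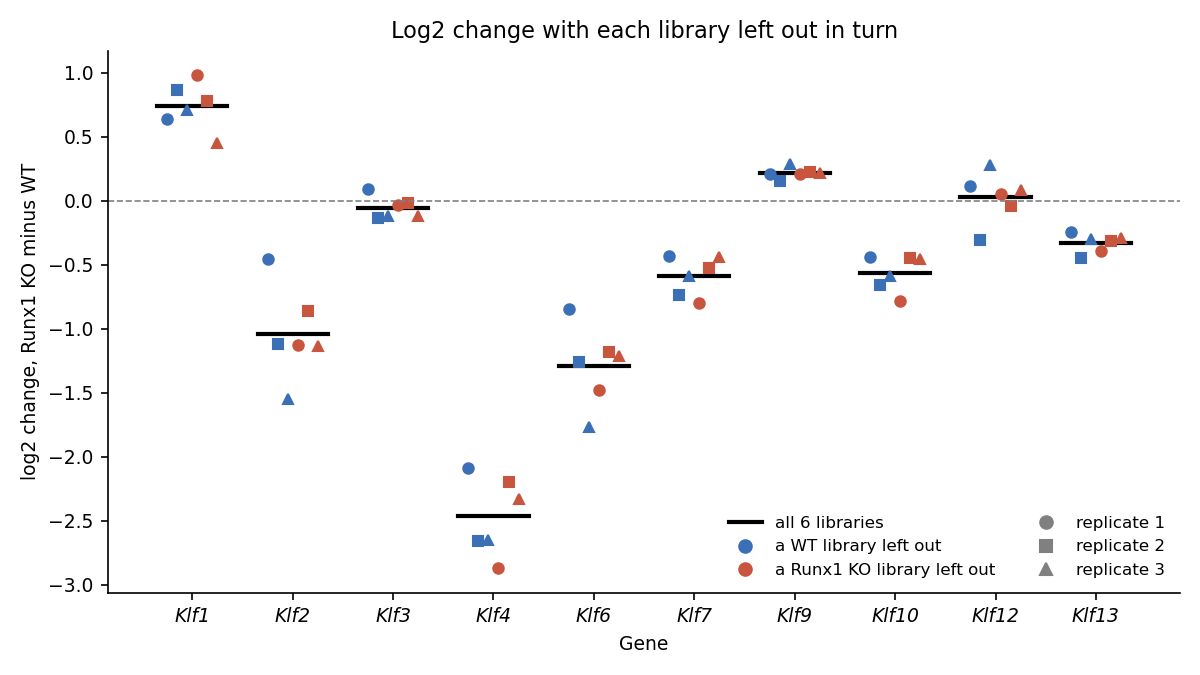
Log2 change from libraries labelled WT to libraries labelled Runx1 KO with each library left out in turn (points) beside the value with all 6 libraries (black line). Klf4 stays between -2.87 and -2.09, Klf2 moves from -1.04 to -0.45 without WT replicate 1, and Klf3 and Klf12 cross 0.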

How the data were processed

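Poly-A RNA libraries of c-Kit-positive bone marrow cells (3 labelled WT, 3 labelled Runx1 KO) were used. The submitters' processing notes name HISAT2, HTSeq 0.9.1 and the builds mm10 and GRCm38. The values deposited by the authors are a signal: per the file headers they carry only the library name, and in all 6 files 100% of values were whole multiples (tolerance 0.001) of the smallest positive value, so they were taken for read counts per gene after division by a library's size factor, and the multiples as recovered reads. Neither the factor nor strand use in counting is given in the sources used here.

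Genes passing filterByExpr of edgeR 4.0.16 on these values (minimum count 10, minimum total 15) numbered 15410. They were fitted with limma 3.58.1 (eBayes with a mean trend, group as the only term, two-sided, Benjamini-Hochberg over all genes tested) in R 4.3.3 on log2(value + 1), a scale that understates changes of low genes. The procedure was tested on simulated data. Exact permutation of 3 against 3 cannot go below a p of 0.1 and was not used. Alternatives were edgeR and DESeq2 1.42.0 on recovered reads (whole for 100% of values), other scalings, pseudocounts and filters, the replicate block, and leaving out each library. Positions and exon lengths are from GENCODE M21 (GRCm38), promoters from RefSeq. Genes named are the members and genes of lists fixed by function, those past the threshold first and otherwise the more abundant, and Atf3, Tpsb2 and the myeloid markers named were singled out after their values were seen. Members and lists were chosen with earlier results of these data known. Reads lack molecular identifiers, so depth covers counting error only.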

Additional observations from a re-analysis of the deposited data

How the results depend on the processing

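Klf4 stayed past the threshold in the 10 alternatives with all libraries, with log2 changes from -2.47 to -2.38, and in the 6 fits that left out a library. The number of members called was 1 except in 2 of those 10. DESeq2 on recovered reads called 5 (25.4% of all genes tested), 1 higher (Klf1) and 4 lower (Klf4, Klf6, Klf10 and Klf13). With the replicate number as a block, limma called 6 (24.9% of all genes tested), 1 higher (Klf1) and 5 lower (Klf4, Klf6, Klf7, Klf10 and Klf13), and 3843 genes in all against 3370. The numbers are shared in the titles only, and the deviations of same-numbered libraries correlated at 0.29, 0.13 and -0.01 for replicates 1, 2 and 3, so that pairing is not shown and not every library correlated best with its own number. The edgeR test with TMM on recovered reads called 1 member and 3261 genes. With a library left out, from 1 to 4 members were called, from 0 to 1 higher and from 1 to 3 lower, and from 1349 to 3551 genes in all. The 4 came without Runx1 KO replicate 1 (Klf1, Klf4, Klf7 and Klf10), and 2 came without WT replicate 2 and without WT replicate 3. The fewest genes came without Runx1 KO replicate 2 (1349), Runx1 KO replicate 3 (1743) and WT replicate 2 (2140). Both low-change members crossed 0 without passing in any setting: Klf3 was 0.026 with library totals as scaling and ran from -0.14 to 0.089 (without WT replicate 1) with a library left out, and Klf12 was -0.043 in edgeR with TMM, -0.050 in edgeR with DESeq2 size factors and -0.053 in DESeq2, and ran from -0.31 (without WT replicate 2) to 0.28 with a library left out, at -0.044 without Runx1 KO replicate 2. Library totals moved the median of all genes to 0.08. Klf12 was below the stricter filter on the mean and had no value there. Over the 10 members, 99 values with every library included held 86 with the same direction and call and 9 that newly passed. Of 60 values with a library left out, 52 held and 5 newly passed. The cause was not tested.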
